A study of Mus musculus with 18 samples.

Results

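The MHC class II genes were followed in 18 mouse livers by RNA sequencing. The members were chosen by name: Cd74, H2-Aa, H2-Ab1, H2-Eb1, H2-DMa, H2-DMb1 and Ciita. All 7 were found among the 32285 genes of the count table, and all 7 were among the 13356 genes that passed the filter on low counts. The series asked whether offspring of germline stem (GS) cells that had been stored frozen in orbit show normal gene expression. GS cells are cultured spermatogonia that regenerate sperm production when placed in a testis. They came from testes of DBA/2 mice a few days old, and the study's methods describe the line as carrying an EGFP transgene, driven by the actin promoter, that was bred from a C57BL/6 line into DBA/2.

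Space pups descended from GS cells that spent 6 months in a freezer aboard the ISS, and Ground pups from GS cells that spent 6 months in a freezer on Earth. In both cases the thawed cells were placed in the testes of W mice, which have mutations in Kit and make no sperm of their own, and these recipients were mated with C57BL/6 females. Pup livers were taken at 10 weeks. BDF1 control livers came from wild-type mice that had no GS cell or transplantation step, and their age is not given in the sources used here. All 3 groups are labelled strain B6D2F1 and genotype wild-type, and each has 6 libraries. The litter and the sire of each mouse are not given either, so p-values measure the spread between these livers.

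MHC class II molecules show peptides taken up from outside the cell to CD4+ T cells. The alpha chain (H2-Aa) and beta chains (H2-Ab1, H2-Eb1) form the peptide-binding dimers, the invariant chain (Cd74) escorts new dimers to endosomes, and the H2-DM dimer (H2-DMa, H2-DMb1) exchanges the invariant chain fragment for peptide. Ciita is the coactivator without which class II genes stay silent in most settings. In the liver, class II protein is known mainly from Kupffer cells, dendritic cells, B cells and sinusoidal endothelium, whereas hepatocytes carry little of it at rest.

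The genes are given on GRCm38 with the GENCODE M21 annotation. Of the members, 5 lie together on chromosome 17: H2-DMa at chr17:34119541-34139101, H2-DMb1 at chr17:34153072-34160230, H2-Ab1 at chr17:34257689-34269419 and H2-Eb1 at chr17:34305867-34316674 on the plus strand, and H2-Aa at chr17:34282744-34287823 on the minus strand. Ciita lies at chr16:10480059-10528418 on the plus strand. The DBA/2 and C57BL/6 parents carry different H2 haplotypes, and the reference genome is that of C57BL/6. How many reads from the DBA/2 copies of H2-Aa, H2-Ab1 and H2-Eb1 were aligned was not tested. H2-Ea, the alpha chain partner of H2-Eb1, which C57BL/6 mice do not transcribe, was not analysed here.

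Proximal promoters of class II genes are known for a conserved X box and Y box. These were searched in the 250 bases before each RefSeq start (GRCm38.p6), on both strands, with ATTGG for the Y box and, for the X box, AGNNAC followed directly by NNATG, where N is any base. The 2 patterns share no bases where both were found. Of 32851 promoter windows of this length, 2.6% held the X letters, 33.8% the Y letters and 1.08% both. Both were found upstream of H2-Eb1 and H2-DMb1. In H2-Eb1 the X letters began at base -92 and the Y letters at base -59, 33 bases apart, and in H2-DMb1 they began at -95 and -61, 34 bases apart. H2-Aa held the Y letters at -48 and no match to the X letters. The H2-DMa windows, which belong to 2 annotated starts, held no X letters, and 1 of them held the Y letters at -198. H2-Ab1, Ciita and Cd74 are not shown. The stretches from base -120 to base -31 are printed for one alpha and one beta chain gene, to show a window with both patterns (H2-Eb1) beside that of a member called against BDF1 (H2-Aa), and capitals mark the X and Y letters on either strand. They lie at chr17:34287854-34287943 (minus strand) for H2-Aa and at chr17:34305747-34305836 (plus strand) for H2-Eb1.
H2-Aa: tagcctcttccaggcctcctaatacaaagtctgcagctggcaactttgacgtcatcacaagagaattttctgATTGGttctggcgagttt
H2-Eb1: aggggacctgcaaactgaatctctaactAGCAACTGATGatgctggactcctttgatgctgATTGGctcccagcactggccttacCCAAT

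Libraries held between 1.54e+07 and 2.06e+07 counted reads. Replicates 1 to 3 and replicates 4 to 6 of every group were compared separately, because they differed as sets: Xist had at most 187 reads in replicates 1 to 3 and at least 12218 in replicates 4 to 6, and the Y-linked genes had at least 1822 reads in the former and at most 26 in the latter. The labels name no sex, and the study states that males and females were both used. Whatever else separates the sets cannot be told apart from this. Alb, which encodes albumin, took between 4.47% and 6.45% of reads in replicates 1 to 3 and between 6.72% and 24.1% in replicates 4 to 6, so the scaling matters. Levels are given as CPM, the reads of a gene relative to the size of its library, after TMM scaling, which sets each library by the bulk of its genes rather than by its total. With scaling to the total count, the median log2 change of all genes fell by 0.47 for Ground against BDF1 and by 0.40 for Space against BDF1 in replicates 4 to 6, and by 0.07 and 0.13 in replicates 1 to 3.

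Per length of exon, Cd74 was by far the most abundant member, at 25.6 ± 8.49 CPM per kilobase (SD, n = 18). The chains of the peptide-binding dimers followed at 4.90 ± 1.65 for H2-Eb1, 3.63 ± 1.05 for H2-Ab1 and 2.73 ± 0.968 for H2-Aa. The spreads of neighbours among these chains overlapped over libraries. Within a library H2-Eb1 was above H2-Ab1 in 17 of 18 libraries and H2-Ab1 above H2-Aa in 18 of 18. This order rests on the annotated exon lengths, 1944 bases for H2-Eb1, 2568 for H2-Ab1 and 3798 for H2-Aa. Without the length, H2-Aa had the highest mean of these chains, at 10.4 CPM beside 9.52 for H2-Eb1 and 9.31 for H2-Ab1. H2-DMa at 0.482 ± 0.156 and H2-DMb1 at 0.455 ± 0.179 CPM per kilobase overlapped, and H2-DMa was the higher one in 9 of 18 libraries. Without the length, the means of H2-DMa and H2-DMb1 were 1.66 and 0.765 CPM. Ciita was lowest at 0.0839 ± 0.0395 CPM per kilobase. In reads, Cd74 had between 444 and 1232 per library, H2-Aa between 85 and 291, H2-DMa between 19 and 46, Ciita between 6 and 27, and H2-DMb1 between 1 and 26. H2-DMa, Ciita and H2-DMb1 therefore carry large counting error, and small differences in them were not detectable at this depth.

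Some members share sequence with other genes, which can move their reads. Cd74, at chr18:60803848-60812652 on the plus strand, overlaps only a microRNA gene. H2-DMa shares 360 exon bases with Brd2 on the opposite strand, and Brd2 had between 1138 and 2258 reads per library. Ciita shares 329 exon bases with Dexi, also on the opposite strand. The library kit keeps strand, but the strand setting of the counting is not given in the sources used here, so H2-DMa and Ciita are uncertain to that extent. Of the distinct 76-base words in H2-DMb1 transcripts, 15.7% also occur in H2-DMb2, its near-identical neighbour, so H2-DMb1 is uncertain too. Cd74, H2-Aa, H2-Ab1 and H2-Eb1 share none of their words with another gene.

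Cd74, the invariant chain, was higher in pups of both kinds than in BDF1 livers. In replicates 1 to 3 its levels were 38.4, 45.8 and 34.2 CPM in Space pups, 60.1, 44.5 and 39.3 CPM in Ground pups, and 20.8, 25.7 and 31.0 CPM in BDF1 mice. In replicates 4 to 6 they were 70.6, 58.6 and 46.6 CPM in Space pups, 37.7, 69.9 and 37.9 CPM in Ground pups, and 32.3, 50.1 and 30.9 CPM in BDF1 mice. Every pup library stood above every BDF1 library in replicates 1 to 3, but in replicates 4 to 6 the groups overlapped because BDF1 replicate 5 was high. Over both sets, the Cd74 level of Space pups was 1.54-fold that of BDF1 controls (0.62 ± 0.18 SE as a log2 change, with adjusted p = 0.0336 in edgeR's quasi-likelihood test with Benjamini-Hochberg adjustment, as for every adjusted p here unless another test is named). That of Ground pups was also 1.54-fold (0.63 ± 0.18, with adjusted p = 0.0296).

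H2-Aa, the alpha chain, followed Cd74 closely. In replicates 1 to 3 it stood at 11.1, 12.3 and 8.76 CPM in Space pups, 14.2, 10.3 and 9.59 CPM in Ground pups, and 3.98, 5.60 and 6.37 CPM in BDF1 mice, again with no overlap. In replicates 4 to 6 it stood at 17.1, 11.7 and 11.1 CPM in Space pups, 8.34, 18.2 and 8.36 CPM in Ground pups, and 8.86, 12.2 and 8.22 CPM in BDF1 mice. Here Ground replicates 4 and 6 were at the level of BDF1, and only Space replicate 4 and Ground replicate 5 rose clear of every BDF1 library. Over both sets the H2-Aa level of Space pups was 1.66-fold that of BDF1 controls (0.73 ± 0.21 as a log2 change, with adjusted p = 0.0290). That of Ground pups was 1.60-fold (0.68 ± 0.20, with adjusted p = 0.0372).

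**Figure D1:**
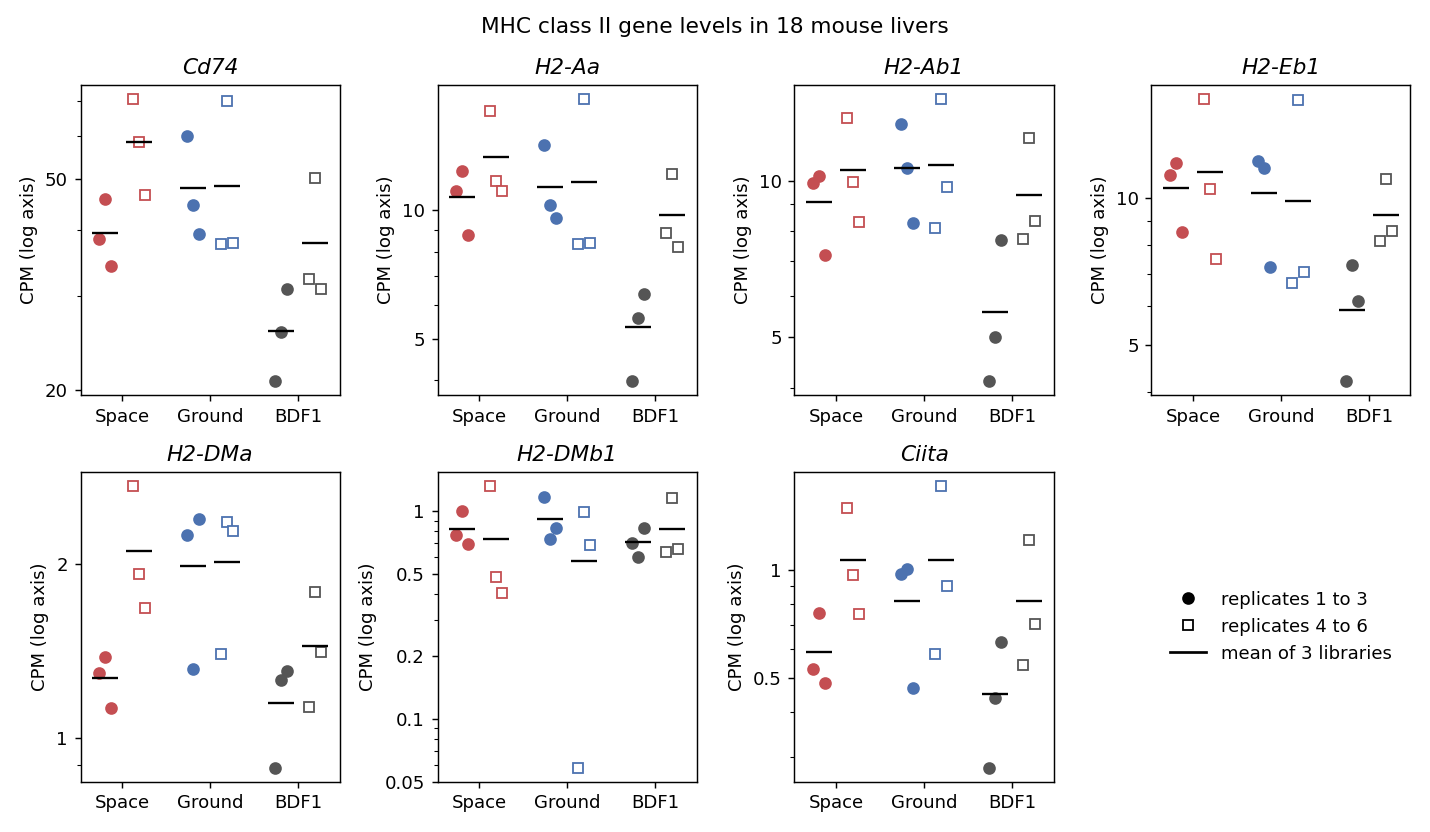
Level of each MHC class II gene in each of 18 livers (y axis: TMM-scaled CPM on a log axis, with a scale of its own per gene; x axis: group; filled circles, replicates 1 to 3; open squares, replicates 4 to 6; line, mean of 3 libraries). For Cd74 the 3 BDF1 livers of replicates 1 to 3 lie between 20.8 and 31.0 CPM, below all 6 pup livers of that set.

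The beta chains leaned the same way without passing the test. H2-Ab1 ranged from 7.20 to 10.2 CPM in Space pups, 8.28 to 12.9 in Ground pups and 4.12 to 7.68 in BDF1 mice in replicates 1 to 3, and from 8.32 to 13.2, 8.11 to 14.3 and 7.73 to 12.1 CPM in replicates 4 to 6. Over both sets its log2 change was 0.42 ± 0.19 for Space pups (adjusted p = 0.151) and 0.55 ± 0.19 for Ground pups (adjusted p = 0.0613). H2-Eb1 ranged from 8.55 to 11.8 CPM in Space pups, 7.24 to 11.9 in Ground pups and 4.21 to 7.30 in BDF1 mice in replicates 1 to 3. Its log2 change over both sets was 0.56 ± 0.23 for Space pups (adjusted p = 0.120) and 0.45 ± 0.23 for Ground pups (adjusted p = 0.207). In replicates 4 to 6 H2-Eb1 overlapped fully, at 7.51 to 16.0, 6.71 to 15.9 and 8.17 to 11.0 CPM in Space, Ground and BDF1 livers.

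Neither peptide exchange subunit passed the test. H2-DMa ranged from 1.13 to 1.38 CPM in Space pups, 1.32 to 2.40 in Ground pups and 0.890 to 1.31 in BDF1 mice in replicates 1 to 3, and from 1.68 to 2.73, 1.40 to 2.37 and 1.13 to 1.79 CPM in replicates 4 to 6. Its log2 change over both sets was 0.63 ± 0.21 for Ground pups (adjusted p = 0.0576) and 0.34 ± 0.22 for Space pups (adjusted p = 0.322). H2-DMb1 lay between 0.604 and 1.17 CPM in all livers of replicates 1 to 3, with the groups overlapping. In replicates 4 to 6 it spread from 0.0584 CPM in Ground replicate 4, where it had 1 read, to 1.33 CPM in Space replicate 4. Its log2 changes over both sets were -0.01 ± 0.39 for Space pups (adjusted p = 0.996) and -0.09 ± 0.40 for Ground pups (adjusted p = 0.908), intervals that allow a change of either sign, from -0.82 to 0.81 and from -0.93 to 0.75.

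Ciita, the coactivator, was below 2 CPM in every liver. In replicates 1 to 3 it ranged from 0.484 to 0.755 CPM in Space pups, 0.469 to 1.00 in Ground pups and 0.281 to 0.627 in BDF1 mice, and in replicates 4 to 6 from 0.751 to 1.48, 0.584 to 1.71 and 0.542 to 1.21 CPM. The groups overlapped in both sets. Its log2 change over both sets was 0.37 ± 0.34 for Space pups (adjusted p = 0.505) and 0.61 ± 0.33 for Ground pups (adjusted p = 0.226), with few reads in every library.

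Counted over the members, 2 of 7 (Cd74 and H2-Aa) passed an adjusted p of 0.05 in Space pups against BDF1 over both sets, where 12.9% of all tested genes did, and the same pair passed in Ground pups, where 14.6% did. The comparisons share the BDF1 livers, so the calls are not independent of each other. The members' median log2 change was 0.42 in Space pups and 0.61 in Ground pups, beside 0.00 and 0.02 over all tested genes. These calls were narrow. With scaling to the total count neither gene passed: Cd74 stood at 0.34 and 0.34 in Space and Ground pups and H2-Aa at 0.45 and 0.39, while the median of all genes moved to -0.26 in both. Leaving out any 1 of BDF1 replicates 1, 2, 4 or 6 also left 0 members called in either comparison, as did leaving out Space replicate 1, 2 or 4 for Space pups or Ground replicate 1 or 5 for Ground pups. Without Space replicate 5, only H2-Aa was called in Space pups. A fit by group without the sets left 0 members called in either comparison. In Ground pups a block for the replicate number kept Cd74 alone. DESeq2 went the other way there and called 4 of 7 members, but its share of all genes is not given here.

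Within replicates 1 to 3 each comparison rested on 3 livers a group. H2-Aa differed by a log2 change of 1.01 ± 0.30 in Space pups (adjusted p = 0.0631) and 1.10 ± 0.29 in Ground pups (adjusted p = 0.0662). Cd74 differed by 0.61 ± 0.26 and 0.89 ± 0.26, H2-Ab1 by 0.70 ± 0.28 and 0.92 ± 0.27, and H2-Eb1 by 0.84 ± 0.33 and 0.80 ± 0.33 in Space and Ground pups. H2-DMa differed by 0.14 ± 0.32 and 0.79 ± 0.30, and Ciita by 0.39 ± 0.51 and 0.86 ± 0.48. In edgeR 0 of 7 members passed in Space pups (4.64% of all genes did) and 0 of 7 in Ground pups (1.92% did). At an unadjusted p under 0.05, 4 and 5 members passed, beside 2584 and 2128 of all tested genes. DESeq2 called H2-Aa in Space pups, among 1002 genes in all, and Cd74, H2-Aa and H2-Ab1 in Ground pups, among 619.

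As plain counts, the groups of replicates 1 to 3 separated for several members. Every Space liver stood above every BDF1 liver for Cd74, H2-Aa and H2-Eb1, 3 of 7 members, where 18.5% of all tested genes did so. Every Ground liver stood above every BDF1 liver for Cd74, H2-Aa, H2-Ab1 and H2-DMa, 4 of 7 members, where 12.2% did so. Marker sums of other cells also separated in this set for at least one kind of pup, and their part was not tested. The 5 hepatocyte markers summed to between 85381 and 87109 CPM in Space pups against 54742 to 67453 CPM in BDF1 controls, with Ground pups from 67440 to 84779 CPM. The 5 stellate cell markers summed to between 156 and 172 CPM in Space pups and 133 and 146 CPM in Ground pups against 98.1 to 121 CPM in BDF1 controls. The 5 sinusoidal endothelium markers summed to between 77.0 and 80.9 CPM in Space pups, below the 99.5 to 114 CPM of BDF1 controls. Ptprc, carried by all leukocytes, stood at 5.17 to 6.53 CPM in Ground pups, above the 2.48 to 4.28 CPM of BDF1 controls.

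In replicates 4 to 6 the same comparisons gave smaller values for H2-Aa. Alb and Apoa1, both made by hepatocytes, were called higher in both kinds of pup in this set, while the other 3 hepatocyte markers (Ttr, Cps1 and Tat) were not called, Cps1 and Tat with negative log2 values in both. Through Alb the 5 markers summed to between 72414 and 94092 CPM in BDF1 controls and to at least 212210 CPM in pups. Their part in the class II values was not tested. Cd74 differed by a log2 change of 0.63 ± 0.26 in Space pups (adjusted p = 0.113) and 0.36 ± 0.25 in Ground pups (adjusted p = 0.369). H2-Aa differed by 0.44 ± 0.28 and 0.25 ± 0.29. In edgeR 0 of 7 members passed in Space pups, where 11.9% of all genes did, and 0 of 7 in Ground pups, where 15.2% did, with 1 and 0 members at an unadjusted p under 0.05, and DESeq2 called 0 in both. No member separated fully in either comparison, where 15.9% and 14.3% of all tested genes did. The values moved with the scaling of all genes: 6 of 7 members were higher in Ground pups with TMM scaling and 0 of 7 with scaling to the total count, where Cd74 stood at -0.14 and H2-Aa at -0.25 and the median of all genes at -0.46, below both. For Space pups 6 of 7 were higher with TMM scaling and 3 of 7 with scaling to the total count, where Cd74 stood at 0.21, H2-Aa at 0.01 and the median of all genes at -0.39. Ground replicate 5 carried most of the Ground difference, and without it Cd74 came to -0.00 and H2-Aa to -0.23.

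**Figure D2:**
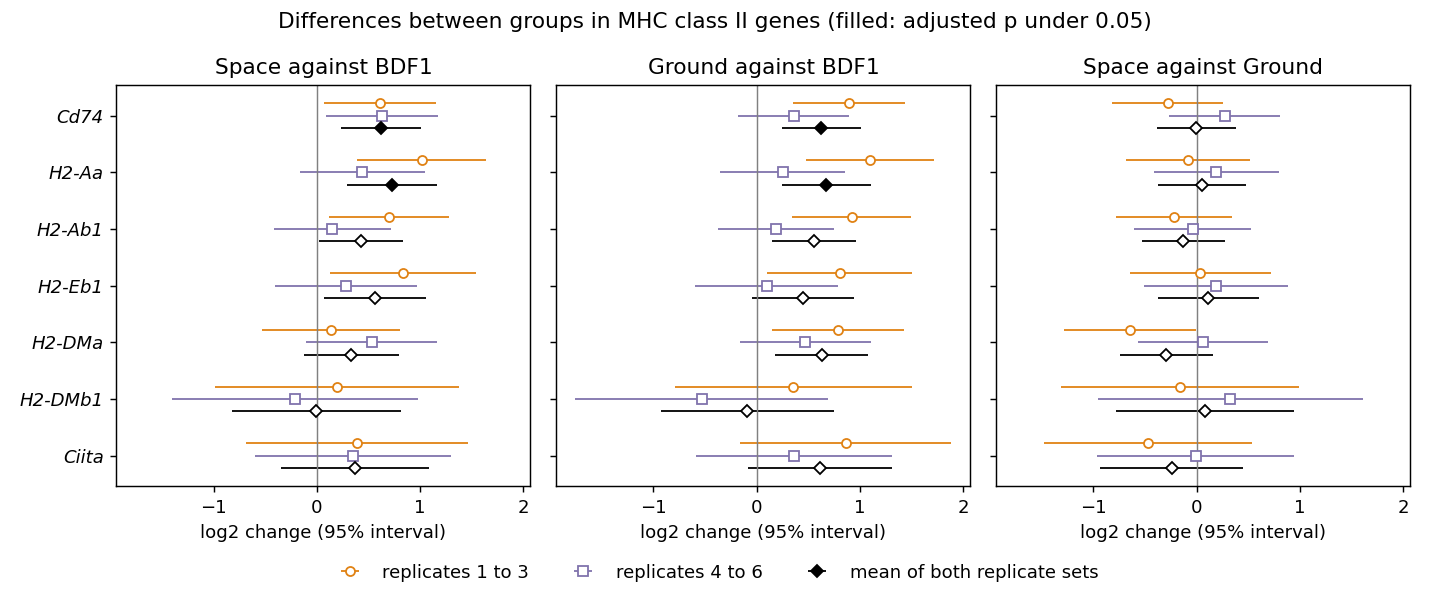
Log2 change of each MHC class II gene (rows) in the 3 comparisons of groups, for replicates 1 to 3, replicates 4 to 6 and the mean of both sets (x axis: log2 change; point, estimate; bar, 95% interval; filled, adjusted p under 0.05). The filled points are Cd74 and H2-Aa against BDF1 over both sets, and for H2-Aa against BDF1 the values in replicates 1 to 3 (1.01 and 1.10) lie to the right of those in replicates 4 to 6 (0.44 and 0.25).

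Whether the pup difference itself changed between the sets was tested as an interaction. H2-Aa differed less in replicates 4 to 6 than in 1 to 3 by a log2 value of -0.85 ± 0.41 in Ground pups (adjusted p = 0.302) and -0.57 ± 0.41 in Space pups (adjusted p = 0.492). In edgeR 0 of 7 members passed for Space against BDF1 (3.19% of all genes did), 0 of 7 for Ground against BDF1 (2.74% did) and 0 of 7 for Space against Ground (0% did), and no member had an unadjusted p under 0.05 in any of them. DESeq2 called 0 members in all 3. With scaling to the total count edgeR called 2 members (H2-Aa and H2-Ab1) lower for Ground against BDF1, among 1501 genes called in all, and the median of all genes stood at -0.41.

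Space and Ground pups, which differ in where their fathers' germ cells were stored, showed no difference in these genes that passed a test. Over both sets Cd74 differed by a log2 change of -0.00 ± 0.18 (adjusted p = 0.995), with a 95% interval from -0.38 to 0.38. The highest of the 7 values was 0.11 ± 0.23 for H2-Eb1 and the lowest -0.29 ± 0.21 for H2-DMa. In edgeR 0 of 7 members passed over both sets, where 0.0225% of all genes did, 0 of 7 in replicates 1 to 3, where 0.00749% did, and 0 of 7 in replicates 4 to 6, where 0.0225% did. At an unadjusted p under 0.05 only H2-DMa in replicates 1 to 3 stood out. DESeq2 called 0 members in all 3, and more genes in all than edgeR did, as given in the last paragraph. With so few genes called in edgeR, and most genes not called in DESeq2 either, these counts say little about class II genes in particular. The intervals are the informative part.

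The sets themselves were compared over the 3 groups. Cd74 was higher in replicates 4 to 6 by a log2 value of 0.38 ± 0.15 (adjusted p = 0.0531), H2-Aa by 0.41 ± 0.17 (adjusted p = 0.0643) and Ciita by 0.69 ± 0.27 (adjusted p = 0.0535). In edgeR 0 of 7 members passed, with 3 at an unadjusted p under 0.05, where 38% of all tested genes passed. DESeq2 called these 3 members, among 5274 genes in all. With scaling to the total count Cd74 stood at 0.12 and H2-Aa at 0.15, the smallest adjusted p of a member was 0.167, and the median of all genes stood at -0.24. By group, the H2-Aa value was 0.88 ± 0.29 in BDF1 mice (adjusted p = 0.0553), 0.31 ± 0.29 in Space pups and 0.03 ± 0.28 in Ground pups, and the interaction above did not pass.

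Read ratios within a library do not depend on scaling. Per 100 Cd74 reads there were 24.9 ± 3.05 H2-Aa reads in Space pups, 23.6 ± 1.52 in Ground pups and 23.3 ± 3.34 in BDF1 mice (SD, n = 6 each). H2-Eb1 gave 22.8 ± 4.95, 20.6 ± 3.17 and 23.9 ± 3.73 reads, and Ciita gave 1.63 ± 0.258, 1.91 ± 0.519 and 1.91 ± 0.403. H2-Ab1 gave 20.4 ± 3.27, 22.3 ± 1.98 and 23.2 ± 2.98 reads, with the groups overlapping in replicates 1 to 3. In replicates 4 to 6 it gave 16.9 to 18.7 in Space pups, below the 20.5 to 25.7 of Ground pups and the 23.9 to 27.0 of BDF1 mice. Within the sets the H2-Aa ratio went opposite ways: it was 25.6 to 28.9 in Space pups, 23.1 to 24.4 in Ground pups and 19.1 to 21.7 in BDF1 mice in replicates 1 to 3, with no overlap, and in replicates 4 to 6 it was at most 24.2 in Space pups, 22.1 to 26.1 in Ground pups and 24.3 to 27.4 in BDF1 mice, with Space pups below BDF1 mice. H2-DMb1 gave 1.63 ± 0.620 reads in Space pups and 1.52 ± 0.712 in Ground pups against 2.47 ± 0.505 in BDF1 mice.

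Over 21 such comparisons, chosen after the values were seen, no ratio passed after Benjamini-Hochberg adjustment in a two-sided exact permutation test over all 12 libraries of a pair of groups, and 3 passed when the libraries were permuted only within replicates 1 to 3 and within replicates 4 to 6. Both results are given, since the sets differ. The first of the 3 was H2-Aa per H2-Ab1, the alpha and beta chain of one dimer. Per 100 H2-Ab1 reads there were 123 ± 7.60 H2-Aa reads in Space pups and 101 ± 11.5 in BDF1 mice, with 107 ± 14.4 in Ground pups (SD, n = 6 each). Space livers stood at 112.5 or more against at most 112.1 in BDF1 mice in replicates 1 to 3, and at 118 or more against at most 114.7 in replicates 4 to 6. The exact permutation p of Space against BDF1 was 0.00433 over all libraries (adjusted p = 0.0682) and 0.005 within the sets (adjusted p = 0.035), the smallest that the within-set arrangements can give. All 3 stood at this smallest p, and a single ratio at it would not have passed over 21 comparisons. The others are one ratio taken for both kinds of pup against the same BDF1 livers, so the 3 are not independent.

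The others concerned H2-DMb1 per 100 Cd74 reads, a ratio of at most 26 reads to many. It was lower than in BDF1 controls in every Space and every Ground liver of the same set: the Ground livers stood at 1.66 to 2.12 and the Space livers between 1.99 and 2.198 against 2.35 to 3.38 in BDF1 livers in replicates 1 to 3, and at 0.155 to 1.82 and 0.821 to 1.88 against 1.98 to 2.32 in replicates 4 to 6. The exact permutation p within the sets was 0.005 for both kinds of pup (adjusted p = 0.035), and over all libraries 0.0152 for Space (adjusted p = 0.102) and 0.00649 for Ground (adjusted p = 0.0682). Since Cd74 itself was called higher in pups and H2-DMb1 had log2 changes near 0, a lower ratio does not say that H2-DMb1 fell.

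**Figure D3:**
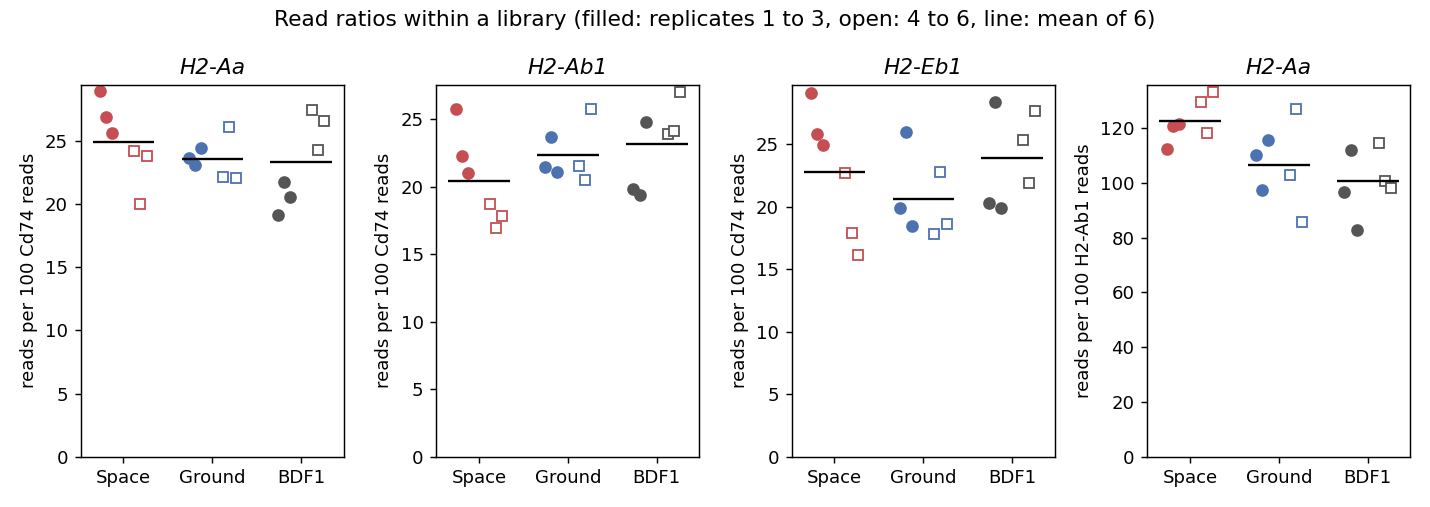
Reads of H2-Aa, H2-Ab1 and H2-Eb1 per 100 Cd74 reads, and of H2-Aa per 100 H2-Ab1 reads, in each library (y axes: reads per 100, from 0; x axis: group; filled circles, replicates 1 to 3; open squares, replicates 4 to 6; line, mean of 6). The mean of H2-Aa per 100 Cd74 reads in Space pups and BDF1 mice is 27.2 and 20.5 in replicates 1 to 3 and 22.7 and 26.1 in replicates 4 to 6, while H2-Aa per 100 H2-Ab1 reads is 123 in Space pups and 101 in BDF1 mice.

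Livers of one group differed from each other, and the members shared that variation. As the deviation of log2 CPM from the mean of its own 3 libraries, averaged over Cd74, H2-Aa, H2-Ab1 and H2-Eb1, Ground replicate 5 stood at 0.65, Space replicate 4 at 0.40, BDF1 replicate 5 at 0.36 and Ground replicate 1 at 0.31, while BDF1 replicate 1 stood at -0.37 and Ground replicate 4 at -0.37. Pearson's r of these deviations over the 18 libraries was 0.96 between Cd74 and H2-Aa, 0.93 between Cd74 and H2-Ab1, 0.88 between Cd74 and H2-Eb1 and 0.90 between Cd74 and Ciita. It was 0.62 between Cd74 and H2-DMa and 0.67 between Cd74 and H2-DMb1. These are descriptions over libraries that share their scaling and, in each set of 3, a mean. Ciita varied with Cd74 even at its few reads, in replicates 1 to 3 (r = 0.86 with Cd74, 9 libraries) and in replicates 4 to 6 (r = 0.93).

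**Figure D4:**
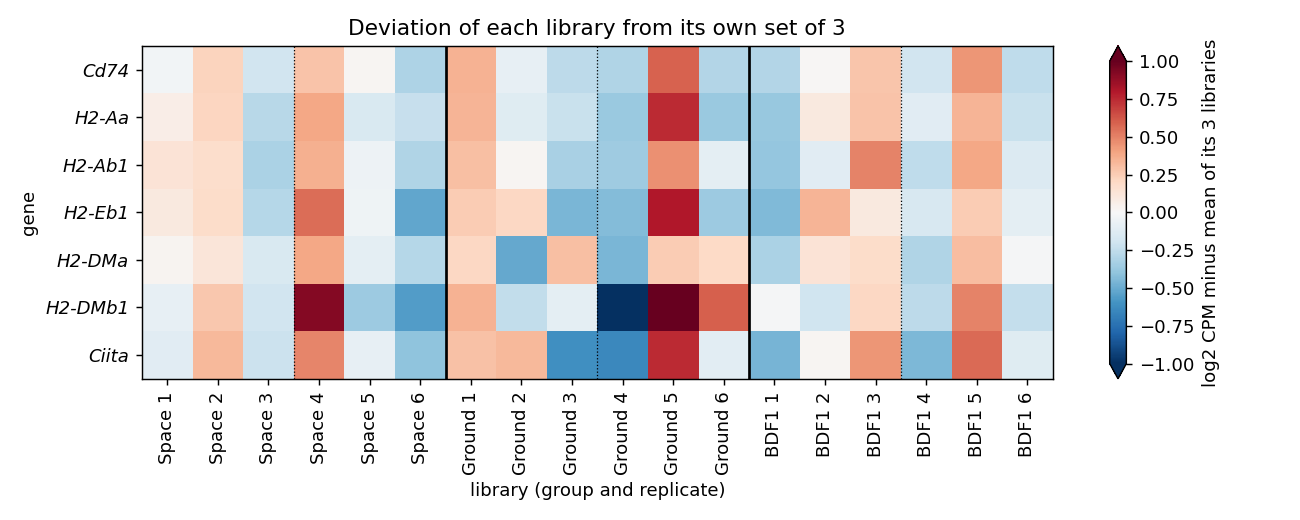
Deviation of log2 CPM from the mean of the same 3 libraries, for each MHC class II gene (rows) in each library (columns; solid lines part the groups, dotted lines part replicates 1 to 3 from 4 to 6; colour scale from -1 to 1, with values beyond it at the end colours). Space replicates 2 and 4, Ground replicates 1 and 5 and BDF1 replicates 3 and 5 are above their own set in all 7 genes.

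Among genes that are no members, the 10 whose deviations were most like the mean of Cd74, H2-Aa, H2-Ab1 and H2-Eb1 over the 18 libraries were Abhd2, Grb10, Tgm1, Klhdc4, P2ry14, Orai2, Trmt12, Irf8, Il18bp and Stk11ip, with r from 0.83 (Stk11ip) to 0.89 (Abhd2). Among all tested genes the class II chains and Ciita themselves held the first 5 places, with r from 0.93 for Ciita to 0.98 for H2-Aa, the mean being built from the first 4 of them, which largely fixes their places. H2-DMb1 came in place 203 with r = 0.70 and H2-DMa in place 559 with r = 0.62. Ctss, the protease that trims the invariant chain, came in place 145 with r = 0.72.

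The cells that carry class II protein were looked for through their markers. In bulk tissue, fewer cells of a type and less RNA per cell cannot be told apart. Hepatocyte markers were far above all others, with Alb at no less than 38189 CPM. All 9 Kupffer cell markers were detected in every library, and their summed level lay between 96.3 and 261.7 CPM. The 6 B cell markers summed to between 0.484 and 6.53 CPM, with Ms4a1 at 0 in 3 libraries and Fcmr at 0 in 5. The 7 dendritic cell markers summed to between 6.30 and 8.87 CPM, mostly from Zbtb46 and Clec9a, and Flt3 was at 0 in 3 libraries and Xcr1 in 4. A count of 0 allows a level of up to 0.134 to 0.234 CPM, depending on the library, for counting error only.

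The Kupffer cell markers were compared with the members set by set. In replicates 4 to 6 they summed to between 171 and 262 CPM in Ground pups and 191 and 259 CPM in Space pups, against 96.3 to 204 CPM in BDF1 mice. In replicates 1 to 3 they summed to between 103 and 140 CPM in Space pups, within the BDF1 range of 99.7 to 160 CPM, while the 7 members summed to between 61.1 and 83.3 CPM in those Space pups and 35.0 and 53.9 CPM in BDF1 mice. The part of Kupffer cells in the class II values was not tested. Ground replicates 1 and 3 had Kupffer sums of 258 and 231 CPM, and Ground replicate 2 had 106 CPM with a member sum of 80.0 CPM. Over both sets 2 of 9 Kupffer markers were called higher in Ground pups than in BDF1 controls (Clec4f, log2 change 0.84 ± 0.20, and Vsig4, 0.82 ± 0.24) and 0 of 9 in Space pups. All 9 had positive log2 values in both kinds of pup in replicates 4 to 6 (median 0.72 in each), and Clec4f was called higher in Space pups. Across the 18 libraries, the deviations of the 9 Kupffer markers had an r with those of the class II mean between 0.40 for Marco and 0.68 for C1qc, with Vsig4 at 0.66 and Clec4f at 0.47, beside 0.62 for the member H2-DMa and 0.70 for H2-DMb1.

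**Figure D5:**
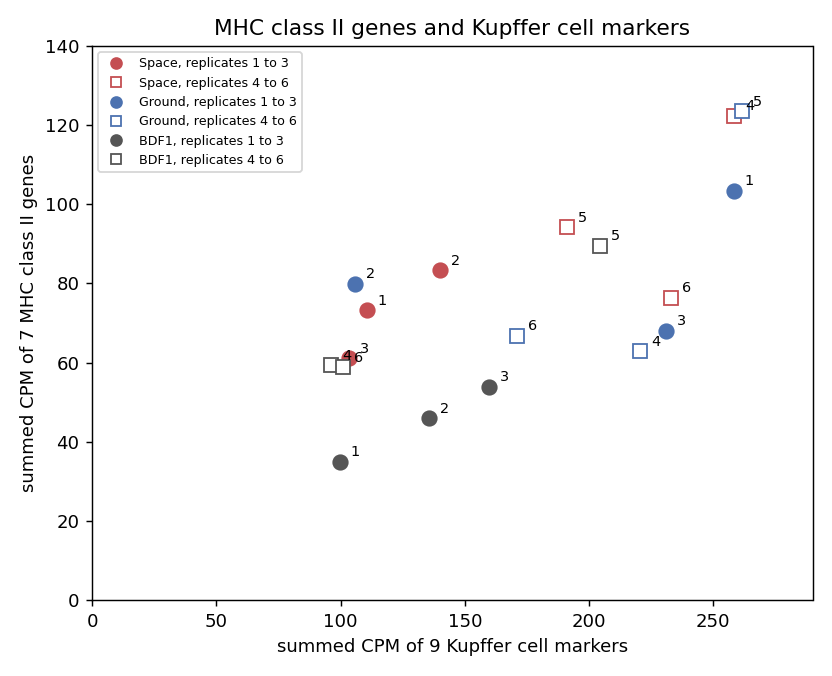
Summed CPM of the 7 MHC class II genes (y axis) against summed CPM of 9 Kupffer cell markers (x axis), 1 point a library, labelled by replicate number (filled circles, replicates 1 to 3; open squares, replicates 4 to 6). Space and BDF1 livers of replicates 1 to 3 have like Kupffer sums, 103 to 140 and 99.7 to 160 CPM, and member sums of 61.1 to 83.3 and 35.0 to 53.9 CPM.

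Markers of other cell types moved in their own ways, and their part in the class II values was not tested. B cell markers rose in replicates 4 to 6 against 1 to 3 over the groups, with all 4 of those tested called higher. Their sums in replicates 1 to 3 overlapped between the groups, at 0.484 to 1.07 CPM in Space pups, 0.729 to 2.16 CPM in Ground pups and 0.574 to 1.59 CPM in BDF1 controls. In the other set they separated, at 2.97 to 6.53 CPM in Space pups and 3.15 to 5.13 CPM in Ground pups above 2.28 to 2.61 CPM in BDF1 controls, and all 4 tested markers had positive log2 values in both kinds of pup, with 0 called. Of 3 tested dendritic cell markers 0 were called between any pair of groups. Of the 5 sinusoidal endothelium markers, Clec4g and Fcgr2b were called lower in Space pups than in BDF1 controls and Stab2 higher in Ground pups. Of 4 tested monocyte markers and 2 tested T cell markers 0 were called between groups over both sets. The monocyte sums of replicates 4 to 6 were 36.1 to 43.0 CPM in Space pups, above the 22.5 to 33.2 CPM of BDF1 controls, with those of Ground pups overlapping both. Ptprc, the CD45 antigen carried by all leukocytes, was higher in Ground pups than in BDF1 controls (log2 change 0.74 ± 0.16, adjusted p = 0.00758) and stood at 0.32 ± 0.17 in Space pups (adjusted p = 0.217). Of 5 stellate cell markers 1 (Dcn) was called higher in both kinds of pup over both sets, while Lrat was called lower in Space pups in replicates 4 to 6, where the stellate sums overlapped (132 to 168 CPM in Space pups, 152 to 201 CPM in Ground pups and 124 to 183 CPM in BDF1 controls). Of 4 cholangiocyte markers 0 were called over both sets. Their sums overlapped in replicates 1 to 3. In replicates 4 to 6 they were 11.3 to 18.1 CPM in Ground pups, below the 20.1 to 22.7 CPM of BDF1 controls, with Space pups at 18.8 to 20.4 CPM.

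Among other class II genes, H2-Ob, the beta chain of the H2-O dimer that restrains H2-DM, and H2-DMb2 were tested, and neither was called between groups over both sets: against BDF1, H2-Ob stood at 0.42 ± 0.48 in Space pups and 0.58 ± 0.46 in Ground pups, and H2-DMb2 at 0.73 ± 0.36 and 0.49 ± 0.36. Both were higher in replicates 4 to 6 than in 1 to 3, by 1.16 ± 0.37 (adjusted p = 0.0212) and 0.93 ± 0.29 (adjusted p = 0.0174). H2-Oa and H2-Eb2 fell below the filter, H2-Eb2 with 7 reads over all 18 libraries.

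Factors of class II transcription other than Ciita were mostly not called between groups. Of the 7 factors that bind the X and Y boxes (Rfx5, Rfxap, Rfxank, Nfya, Nfyb, Nfyc and Creb1), 1 was called against BDF1 over both sets in Space pups and 0 in Ground pups. It was Rfx5, the large subunit of the X box complex, with a log2 change of -0.35 ± 0.10 in Space pups (adjusted p of 0.0348) and of -0.15 ± 0.10 in Ground pups. The median log2 change of the 7 factors was -0.03 in Space pups and 0.07 in Ground pups, beside 0.42 and 0.61 for the members.

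Interferon gamma is the best known inducer of Ciita. Its own transcript, Ifng, had at most 1 read in a library and was not tested. Among the tested genes of its signal, Ifngr1, the receptor's ligand-binding chain, was called higher in both kinds of pup (0.33 ± 0.09 in Space and 0.48 ± 0.09 in Ground pups). Irf1, an interferon-induced transcription factor, was called lower: it fell by 0.87 on the log2 scale in Space pups (adjusted p = 3.81e-05) and by 0.62 in Ground pups (adjusted p = 0.000348). Jak1, a kinase bound to the receptor, was called lower in Space pups (log2 change -0.35 ± 0.11). Irf8, a factor of myeloid and B cells, stood at 0.28 ± 0.19 and 0.38 ± 0.18 and was not called.

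The class I pathway, which shows peptides from inside the cell to CD8+ T cells, gave a mixed count. Against BDF1 over both sets, 3 of 12 genes were called higher in Space pups (H2-K1, B2m and H2-Q10) and 3 lower (Tap2, Tapbp and Psmb10). In Ground pups 1 was called higher (B2m) and 5 lower (Tap2, Tapbp, Psmb8, Psmb9 and Psmb10). B2m, the light chain of class I molecules, rose by 0.44 ± 0.10 and 0.31 ± 0.10, and Psmb10, an immunoproteasome subunit, fell by 0.54 and 0.98. The median of the 12 was -0.08 in Space pups and -0.32 in Ground pups.

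Class II molecules are loaded in endosomes. Of 9 tested genes of endosomal peptide processing, 3 were called higher in Ground pups than in BDF1 controls over both sets (Ctss, Ctsb and March1) and 0 lower, and in Space pups 1 was called higher (March1) and 1 lower (March8). Ctss stood at 0.85 ± 0.22 in Ground pups (adjusted p = 0.0178) and 0.61 ± 0.22 in Space pups (adjusted p = 0.0768). March1, a ubiquitin ligase that removes class II molecules from the surface of dendritic cells and B cells, was higher by 1.00 ± 0.30 in Space pups (adjusted p = 0.0383) and 1.09 ± 0.30 in Ground pups (adjusted p = 0.0226). Of the costimulation genes, Cd86 and Cd83 were tested and 0 were called between groups.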

How the data were processed

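Livers of 6 Space pups, 6 Ground pups and 6 BDF1 mice were sequenced from a stranded mRNA library kit. The authors deposited whole-number read counts per gene, not normalized. The submitters' processing notes name bcl2fastq 2.20, cutadapt 4.6, HISAT2 2.2.1 and HTSeq 2.0.2 and the build mm10; the strand setting and the handling of reads that fit several places are not given in the sources used here. Libraries held 1.54e+07 to 2.06e+07 counts, and floors (3 counts) cover counting error only. The intervals of log2 changes come from the edgeR fit and cover the spread between livers as well. No pair of libraries of the same group and replicate set was alike enough to be a repeat deposit of one library. Other pairs were not compared.

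Counts were fitted in edgeR 4.0.16 (R 4.3.3) with TMM scaling, its filter by expression over 6 cells (group by replicates 1 to 3 or 4 to 6), 1 mean per cell and the quasi-likelihood test. The p-values were adjusted over all 13356 tested genes by Benjamini-Hochberg, with a threshold of 0.05. Values over both sets are the mean of the 2 within-set differences, and intervals are 95%. The deviation measures used log2 CPM with a prior count of 2. The study names Student's t test for single comparisons in general. The test that it applied to the sequencing of these livers is not given in the sources used here. Alternatives were DESeq2 1.42.0, its size factors, no filter, a replicate block, group alone without the set, the fit of 9 libraries alone, each library left out and, added after seeing the data, scaling to the total count and, for read ratios, permutation within the replicate sets. The fit was tested on simulated counts. Named genes were the members, fixed lists of related genes and of cell markers, and the 10 most alike genes. Members and lists were chosen with earlier results of these data known. A gene of the interferon gamma list is not reported here.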

Additional observations from a re-analysis of the deposited data

How the results depend on the processing

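For pups against BDF1 over both sets the number of members called (of 7) was 2 in each. In Space pups it was 0 for group alone and 0 with scaling to the total count, and 0 to 2 when 1 library was left out. In Ground pups it was 4 by DESeq2, 1 with the replicate block (Cd74), 0 for group alone, 0 with scaling to the total count, and 0 to 4 when 1 library was left out. In replicates 1 to 3, where it was 0, no filter gave 1 and 2 for Space and Ground pups, DESeq2 1 and 3, the fit of those 9 libraries alone 1 and 2, and leaving out 1 library 0 to 1 and 0 to 2. Between the sets of replicates it was 1 without a filter, 3 by DESeq2 and 0 to 3 when 1 library was left out. Scaling to the total count called 2 members (H2-Aa and H2-Ab1) for the difference of Ground against BDF1 between the sets. With DESeq2 size factors in edgeR every count of members stayed as reported. The share of all genes called is not given here for DESeq2 against BDF1 over both sets, without a filter or with 1 library left out. Those counts of members therefore say nothing about class II genes in particular.

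Of 21 read ratios 0 passed when all libraries of 2 groups were permuted and 3 when they were permuted within the replicate sets, a test added after seeing the data. With total-count scaling the number of members with a positive value went from 6 to 0 for Ground and from 6 to 3 for Space against BDF1 in replicates 4 to 6, and for Space against Ground from 1 to 0 and from 5 to 7 in replicates 1 to 3 and 4 to 6. Log2 values printed above changed sign in these cases. Ground against BDF1 in replicates 4 to 6 came to -0.14 for Cd74 and -0.25 for H2-Aa with total-count scaling, and ranged from -0.0013 to 0.62 and from -0.23 to 0.45 when 1 library was left out. Space against Ground over both sets came for Cd74 to 0.0239 with the replicate block, 0.0187 for group alone, 0.0058 with total-count scaling and -0.0812 to 0.18 without 1 library, and for H2-Eb1 to -0.0506 to 0.37. H2-DMb1 against BDF1 came in Space pups to 0.0325 with the replicate block, 0.0011 for group alone and -0.34 to 0.17 without 1 library, and in Ground pups to -0.42 to 0.19. H2-DMa in Space pups against BDF1 in replicates 1 to 3 came to -0.0176 without BDF1 replicate 1 and to at most 0.245 without another library. None of these values was called.

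The replicate block took the label's number as a term. It moved the genes called for Ground against BDF1 over both sets from 1950 to 1345, for Space and Ground against BDF1 in replicates 1 to 3 from 620 to 354 and from 257 to 92, for Space in replicates 4 to 6 from 1592 to 939, and for the differences between the sets from 426 to 230 and from 366 to 145. Same-numbered libraries did not deviate together (correlations from -0.60 to 0.25 over 18 pairs of libraries, 3 of them above 0.1), so no pairing by number was seen. Deviations from a mean of 3 libraries cannot exclude such a pairing. Group alone called 488 and 489 genes for Space and Ground pups against BDF1, against 1724 and 1950. In replicates 1 to 3 the fit of 9 libraries alone called 1090 and 560 and DESeq2 1002 and 619, against 620 and 257; in replicates 4 to 6 the fit of 9 libraries alone called 570 and 895 against 1592 and 2031. Between Space and Ground DESeq2 called 68, 139 and 290 genes in replicates 1 to 3, 4 to 6 and over both, against 1, 3 and 3. With total-count scaling 350 genes were called higher and 4158 lower in Space pups and 347 and 4292 in Ground pups, against 935 and 789 and 969 and 981 with TMM. The cause of these changes was not tested. H2-DMa, H2-DMb1 and Ciita had the fewest reads of the members.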
